A study of Mus musculus with 3 samples.

Results

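Class II myosin heavy chains are the motor subunits that pull on actin, and 5 of them that serve heart muscle, smooth muscle and the cytoplasm of most cells are described here: Myh6, Myh7, Myh9, Myh10 and Myh11. Members were taken as every array probe that the deposited annotation names for one of the 5 genes, which gave 11 of the 46632 probes on the array. Myh10 had 3 probes and each of the others 2. RNA came from cardiomyocyte preparations of mouse heart at 3 ages. Embryos were taken at day 11 to 12 of gestation, neonates 3 to 4 days after birth, and adults from 10 weeks on. All animals carried the strain label "eGFP α-MHC" on DBA, a name that joins green fluorescent protein with the α-myosin heavy chain, the product of Myh6. RNA of several hearts was pooled for each age and read on 1 bead array, so no stage has a replicate and no test between stages is possible. The design text names flow sorting, without its gate, after dissociation of the hearts with Liberase.

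A heavy chain dimer binds light chains at its neck, and the tails of many dimers pack into bipolar filaments. Myh6 encodes the fast α chain and Myh7 the slower β chain of cardiac thick filaments. In the mouse ventricle β is the chain known from before birth and α the one known from adult life, while thyroid hormone favours α. Myh9 and Myh10 encode nonmuscle myosins IIA and IIB, which serve cell shape, adhesion, migration and cell division, and Myh10 is known for its role in dividing embryonic cardiomyocytes. Myh11 encodes the smooth muscle chain, a classical marker of mature smooth muscle cells of vessels.

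Myh6 and Myh7 neighbour each other on chromosome 14, and the RefSeq table places a microRNA within the span of each: miR-208a in Myh6 and miR-208b in Myh7. Their mature 3p strands are shown because they mark the shared origin of the 2 cardiac genes. Each is 22 bases long, they differ at 3 bases, and the seed (bases 2 to 8, in capitals) is the same.
mmu-miR-208a-3p: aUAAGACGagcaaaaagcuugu
mmu-miR-208b-3p: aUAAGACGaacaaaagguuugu
The array had 0 probes named for these microRNAs, so their level is not part of the data.

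The sequences around the gene starts are shown for the 2 cardiac chains, which were lower at later stages, and for Myh9, which was higher. Each runs 5′ to 3′ across the gene start in RefSeq, build GRCm38.p6, on the minus strand, at chr14:54966558-54966857 for Myh6, chr14:54994500-54994799 for Myh7 and chr15:77842126-77842425 for Myh9. Capitals mark matches on either strand to the MCAT site bound by TEAD factors, spelled GGAATG, to the core promoter box TATAAA, or to the SP1 box, which reads GGGCGG.
Myh6: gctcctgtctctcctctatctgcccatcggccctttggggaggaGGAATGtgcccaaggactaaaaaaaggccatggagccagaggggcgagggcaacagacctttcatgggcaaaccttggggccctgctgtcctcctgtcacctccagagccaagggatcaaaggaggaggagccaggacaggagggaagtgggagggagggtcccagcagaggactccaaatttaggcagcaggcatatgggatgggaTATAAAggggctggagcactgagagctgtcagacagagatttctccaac
Myh7: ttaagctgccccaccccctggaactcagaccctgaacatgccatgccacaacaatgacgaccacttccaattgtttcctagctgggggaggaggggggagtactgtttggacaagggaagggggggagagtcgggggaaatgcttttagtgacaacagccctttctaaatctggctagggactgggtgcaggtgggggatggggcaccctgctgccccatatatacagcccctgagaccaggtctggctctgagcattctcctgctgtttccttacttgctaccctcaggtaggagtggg
Myh9: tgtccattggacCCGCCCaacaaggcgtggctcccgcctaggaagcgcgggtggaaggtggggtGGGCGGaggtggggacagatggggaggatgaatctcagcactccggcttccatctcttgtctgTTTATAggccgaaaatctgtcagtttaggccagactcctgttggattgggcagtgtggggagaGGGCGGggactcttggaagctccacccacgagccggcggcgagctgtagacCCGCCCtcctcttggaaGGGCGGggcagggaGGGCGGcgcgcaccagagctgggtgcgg
The Myh6 window held 1 MCAT site and 1 TATA box, and the Myh9 window 6 SP1 boxes and 1 TATA box on the opposite strand. The Myh6 TATA box lay 1 base after the listed start. In Myh9, SP1 boxes lay 8 and 22 bases after the listed start and the others before it. The Myh7 window shown held 0 exact matches to the MCAT, TATA and SP1 spellings. Other spellings of these boxes were not searched. A window at the other listed Myh7 start, 77 bases away, held 1 MCAT site. Among all 32851 windows of the same length, 14.7% held an MCAT site, 13.6% a TATA box and 35.7% an SP1 box. A thyroid half-site, a GATA site and a CArG box were also searched, with 0 matches in the Myh6, Myh7 and Myh9 windows. Of all windows, 16.3%, 11.2% and 1.63% held them in that order. E-boxes, searched as well, numbered 1 in Myh6, 2 in Myh7 and 1 in Myh9, and 72.3% of all windows held an E-box. CG dinucleotides numbered 2 in the Myh6 window, 2 in the Myh7 window and 19 in the Myh9 window, against a median of 7.0 over all windows. The Myh10 window had 18, and RefSeq's table of starts was matched for 4 of the 5 genes, without Myh11. These matches describe letters in a window and not binding.

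Of the 11 probes, 8 were detected on at least 1 array, with detection set at a detection p under 0.01. The 3 that no array detected were the second probe of Myh6, the third of Myh10 and the second of Myh11, and the file gives no transcript definition for any of them. Probes are numbered within a gene by falling mean signal. Levels below are raw bead signals in arbitrary units, and differences are on the log2 scale after background correction and quantile normalization. The value after ± is the standard error that the spread between beads gives to a difference. It covers reading error of single arrays only, not animals, preparations or hybridisations. A difference was called where it reached 1 (2-fold) with the probe detected on at least 1 array of the pair, and where 1 array alone detected it the difference is a bound, written "at least".

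The preparations differed in their cell type markers, and these values stand beside every result that follows. Each array detected between 30.2% and 32.9% of its probes, with a median of 37 beads per probe. The sums below are raw and not scaled between arrays, whose median raw signals were 72.2 (embryonic), 77.6 (neonatal) and 57.3 (adult). Of 17 cardiomyocyte markers, the embryonic and neonatal arrays detected 17 each and the adult array 14, and the raw signals of the list summed to 341029.8, 207160.3 and 6092.0 in that order. Fibroblast markers summed to 6891.6, 189304.8 and 132779.5, with 7, 14 and 14 of 15 detected. Macrophage markers summed to 1721.0, 28698.5 and 28890.8, with 3, 13 and 14 of 16 detected, endothelial markers to 1656.0, 17635.8 and 10113.0, with 4, 11 and 10 of 12 detected. Pericyte markers summed to 1770.5, 18116.9 and 6691.8, with 3, 7 and 7 of 7 detected, and smooth muscle markers to 33671.7, 49219.2 and 15706.5, with 8, 10 and 9 of 11 detected. Erythroid markers summed to 65325.4, 30182.4 and 16181.2, with 8, 4 and 3 of 9 detected, and platelet markers to 758.8, 6146.1 and 1892.0, with 2 of 6 detected on each array. Of the fibroblast, smooth muscle, endothelial, pericyte and macrophage lists, the members undetected on all arrays were Tcf21 of the fibroblast list, Cnn1 of the smooth muscle list, Tie1 of the endothelial list, and Itgam and Fcer1g of the macrophage list. Among the cardiomyocyte markers, Mybpc3, Ttn and Ldb3 were undetected on the adult array. After quantile normalization, the adult over neonatal list medians were -4.15 for cardiomyocyte, -0.01 for fibroblast, 1.13 for macrophage and 0.13 for endothelial markers. They were -0.15 for pericyte and -0.69 for smooth muscle markers. With median centring the macrophage median was 0.28 and the pericyte median -0.99. In such pooled RNA, fewer cells of a type and less RNA per cell cannot be told apart. What part these markers have in the differences of the heavy chains was not tested.

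**Figure D1:**
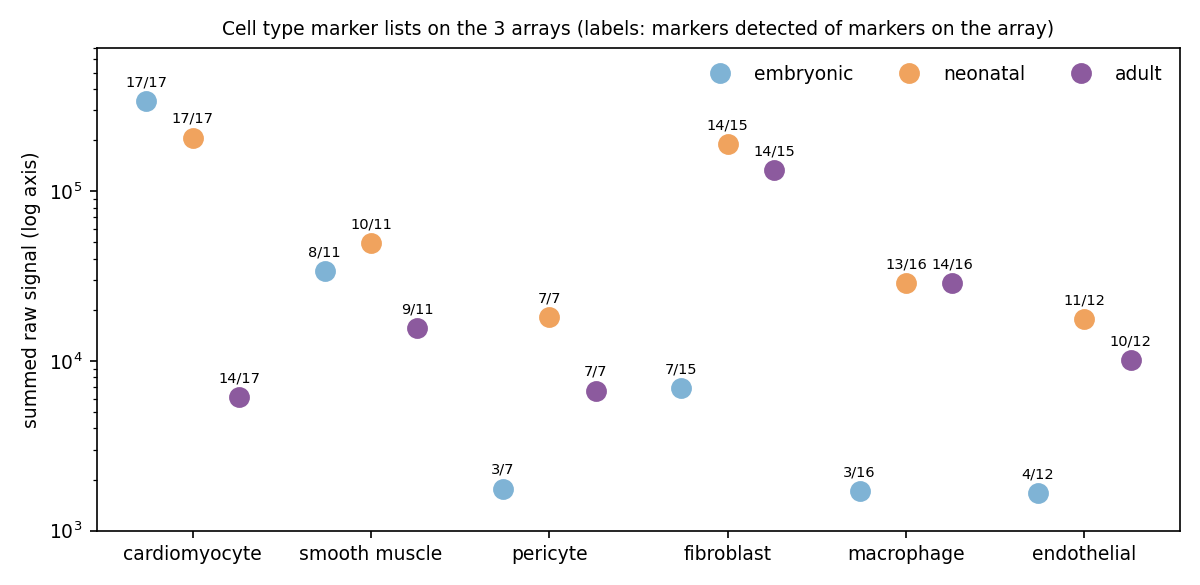
Summed raw signal (log axis) of 6 cell type marker lists on the embryonic, neonatal and adult arrays, with the number of markers detected of those on the array above each point. Raw sums are not scaled between arrays. The cardiomyocyte sum was 341029.8 on the embryonic array, 207160.3 on the neonatal and 6092.0 on the adult array, while the fibroblast sum was 6891.6, 189304.8 and 132779.5.

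The cardiac chains were lower on each later array. Myh6 probe 1 had a raw signal of 3009.2 on the embryonic array (bead SD 1147, 52 beads), 1162.3 on the neonatal array (bead SD 468, 44 beads) and 79.7 on the adult array (bead SD 28.9, 47 beads). The adult signal had a detection p of 0.015 and did not count as detected. The α chain was thus brightest at the embryonic stage and at the edge of detection on the array labelled adult, the stage for which it is the known ventricular chain. On the log2 scale Myh6 was at 11.40 in the embryonic array, 9.68 in the neonatal array and 5.83 in the adult array. The neonatal array was 3.31-fold lower than the embryonic (difference -1.73 ± 0.13), and the adult array at least 10.7-fold lower than the neonatal and at least 35.4-fold lower than the embryonic. Without background correction these log2 bounds were -2.79 and -4.45, against -3.42 and -5.15 as reported. With the detection p set at 0.05, the adult signal counts as detected, at -3.85 ± 0.19 against the neonatal array. The second Myh6 probe had 62.0, 65.5 and 39.2 on the embryonic, neonatal and adult arrays, undetected on each.

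Myh7 probe 1 had 28156.6 on the embryonic array (bead SD 4693, 20 beads), 8869.1 on the neonatal array (bead SD 1908, 23 beads) and 260.8 on the adult array (bead SD 81.1, 28 beads). All arrays detected it, and each later array was lower. The brightest probe of the embryonic array had 39259.2. Neonatal was 3.78-fold below embryonic (-1.92 ± 0.11), adult 18.8-fold below neonatal (-4.23 ± 0.14) and adult 71.1-fold below embryonic (-6.15 ± 0.13). With median centring the adult values were -4.92 against the neonatal and -6.76 against the embryonic array. Only 0.18% of the 16411 probes measured in adult over neonatal had a lower difference than Myh7 probe 1, and 0.50% a lower one than the bound for Myh6. Cardiomyocyte markers were also far down in that pair. All 17 were at least 2-fold lower, from -5.58 to -1.54, around a median of -4.15. The Myh7 difference of -4.23 lay near that median, and the Myh6 bound of -3.42 lay above it. In neonatal over embryonic 8 of the 17 markers were lower, and their median was -0.93. In adult over embryonic all 17 were lower, from -6.78 to -2.58.

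The second Myh7 probe, which carries the same search key in the file, had 1450.2 on the embryonic array (bead SD 370, 37 beads), 94.8 on the neonatal array and 48.2 on the adult array. Only the embryonic array detected it. It was at least 21.5-fold lower in the neonatal and at least 17.1-fold lower in the adult array than in the embryonic. As log2 bounds these were -4.42 and -4.10, and -3.63 and -3.44 without background correction. Both Myh7 probes were lower after the embryonic stage, but by unequal amounts: the neonatal over embryonic difference of the second probe was at least 2.50 below that of the first. Which part of the transcript each probe reads is not stated in the file. A noncoding gene, Mhrt, overlaps Myh7 in the RefSeq table, and whether either probe can read it was not examined.

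The balance of the cardiac chains was compared through the differences of their first probes, in which each probe's own brightness cancels. Between neonatal and embryonic the Myh6 difference exceeded the Myh7 difference by 0.20 ± 0.17, which is close to the bead error, and by 0.79 in the authors' processed values. Between adult and neonatal it exceeded it by 0.38 ± 0.23 and between adult and embryonic by 0.58 ± 0.23. Over the other normalizations these values ran up to 1.01 for adult over neonatal and up to 1.53 for adult over embryonic. Both adult values take the undetected Myh6 signal at its measured value. Both genes were lower in the later array of all 3 pairs. Which of them was lower by more is not established, since the neonatal gap is close to the bead error and the adult Myh6 values are bounds.

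**Figure D2:**
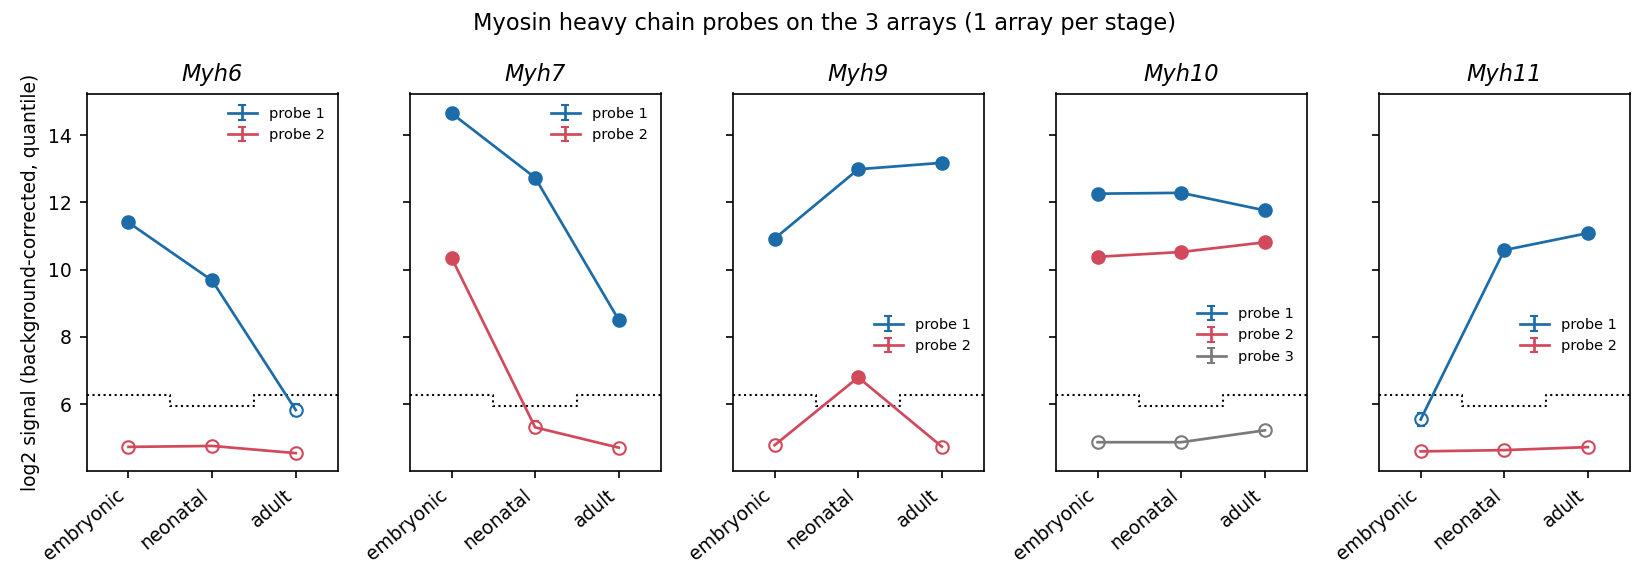
Log2 signal (background-corrected, quantile normalized) of the 11 probes of the 5 heavy chain genes on the embryonic, neonatal and adult arrays, 1 array each. Filled points were detected, open points were not, error bars are bead standard errors and the dotted line is the lowest detected log2 value of each array. Myh6 and Myh7 probe 1 are lower on each later array, Myh11 probe 1 and Myh9 probe 1 are higher on the neonatal and adult arrays than on the embryonic one, and probes 1 and 2 of Myh10 stay between 10.38 and 12.29.

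The smooth muscle chain was higher on both later arrays. Myh11 probe 1 had 91.0 on the embryonic array (bead SD 38.1, 38 beads), 2117.3 on the neonatal array (bead SD 417, 46 beads) and 1261.8 on the adult array (bead SD 295, 33 beads). It was not detected on the embryonic array, with a detection p of 0.032, and was bright on both later ones. The neonatal array was at least 19.8-fold and the adult array at least 28.1-fold higher than the embryonic. Their log2 bounds of 4.31 and 4.81 became 3.65 and 4.13 without background correction. Of all probes measured, 1.01% had a higher neonatal over embryonic difference than this bound. Between adult and neonatal the difference was 0.50 ± 0.08, under 2-fold, and it turned to -0.39 with median centring. The second probe, named from a cDNA clone, had 53.6, 57.0 and 48.9 on the embryonic, neonatal and adult arrays, undetected on each.

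Markers of pericytes and smooth muscle cells were unequal at the same stages. Pericyte markers, which sit beside smooth muscle cells along vessels, were at least 2-fold higher in neonatal over embryonic in 5 of 7 measured members and lower in 0, with a median of 4.21, which turned to -0.21 over the genes detected in both arrays. Over all 10560 genes measured in that pair 34.8% were called, with 17.6% higher and 17.2% lower. The regulator of G-protein signalling gene Rgs5 was at least 71.1-fold higher, and the potassium channel subunit gene Abcc9 differed by -0.21. In the smooth muscle list 6 of 10 measured members were higher and 2 lower. The list's median was 1.89, against -0.05 over all genes, and 0.56 over genes detected in both arrays or 0.90 with the mean over a gene's probes. Actg2, for enteric smooth muscle actin, was at least 82.7-fold higher, the actin-binding gene Synpo2 differed by -2.69 ± 0.09 and Acta2 by 0.08. Acta2, for smooth muscle α-actin, is also made by embryonic heart muscle. For the smooth muscle list, adult over embryonic gave 5 of 10 higher and 2 lower, with a median of 0.70. Over all genes 21.4% were higher and 22.9% lower in that pair. Adult over neonatal gave 0 of 10 higher and 4 lower, against 11.1% and 10.7% of all genes. Lower members then numbered 7 with median centring and 2 with the mean over a gene's probes.

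Nonmuscle myosin IIA was higher after birth. Myh9 probe 1 had 2163.7 on the embryonic array (bead SD 540, 38 beads), 10385.5 on the neonatal array (bead SD 1624, 37 beads) and 5470.3 on the adult array (bead SD 1206, 37 beads). The neonatal and adult arrays were both above the embryonic one. Neonatal exceeded embryonic 4.18-fold (2.06 ± 0.07), and adult exceeded embryonic 4.77-fold (2.25 ± 0.08), or by 1.56 with median centring. Adult and neonatal differed by 0.19 ± 0.07 with quantile normalization and by -0.57 with median centring, so no direction is given for that pair. The second probe, which has no transcript definition in the file, had 64.6, 196.8 and 49.5 on the embryonic, neonatal and adult arrays and was detected on the neonatal array alone. Its bounds were at least 1.44-fold higher in neonatal over embryonic and at least 1.45-fold lower in adult over neonatal, both under the 2-fold threshold.

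Both detected probes of nonmuscle myosin IIB differed by under 2-fold in every pair with quantile normalization. Myh10 probe 1 had 5483.1 on the embryonic array (bead SD 992, 34 beads), 6641.4 on the neonatal array (bead SD 1300, 26 beads) and 2000.2 on the adult array (bead SD 559, 32 beads). Probe 2 had 1478.7, 2036.0 and 1067.1 on the same arrays. Neonatal over embryonic gave 0.03 ± 0.07 for probe 1 and 0.14 ± 0.09 for probe 2, both close to the bead error. In adult over embryonic the probes parted, at -0.50 ± 0.09 for probe 1 and 0.43 ± 0.11 for probe 2, and in adult over neonatal at -0.52 ± 0.09 and 0.29 ± 0.09. With median centring probe 2 turned to -0.59 in adult over neonatal and -0.28 in adult over embryonic, while probe 1 passed 2-fold at -1.39 and -1.27. The third probe had 68.6, 72.4 and 64.6, undetected on each array.

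The 2 nonmuscle genes therefore differed from each other between stages. In neonatal over embryonic the difference of Myh9 probe 1 exceeded that of Myh10 probe 1 by 2.04 ± 0.10. In adult over embryonic it exceeded it by 2.75 ± 0.12. Myh10 probe 2 was at 0.43 in adult over embryonic, against -0.50 for probe 1, so the gap to Myh9 is smaller with that probe. The difference of Myh11 probe 1 in turn exceeded that of Myh9 probe 1 in neonatal over embryonic, by at least 2.25.

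**Figure D3:**
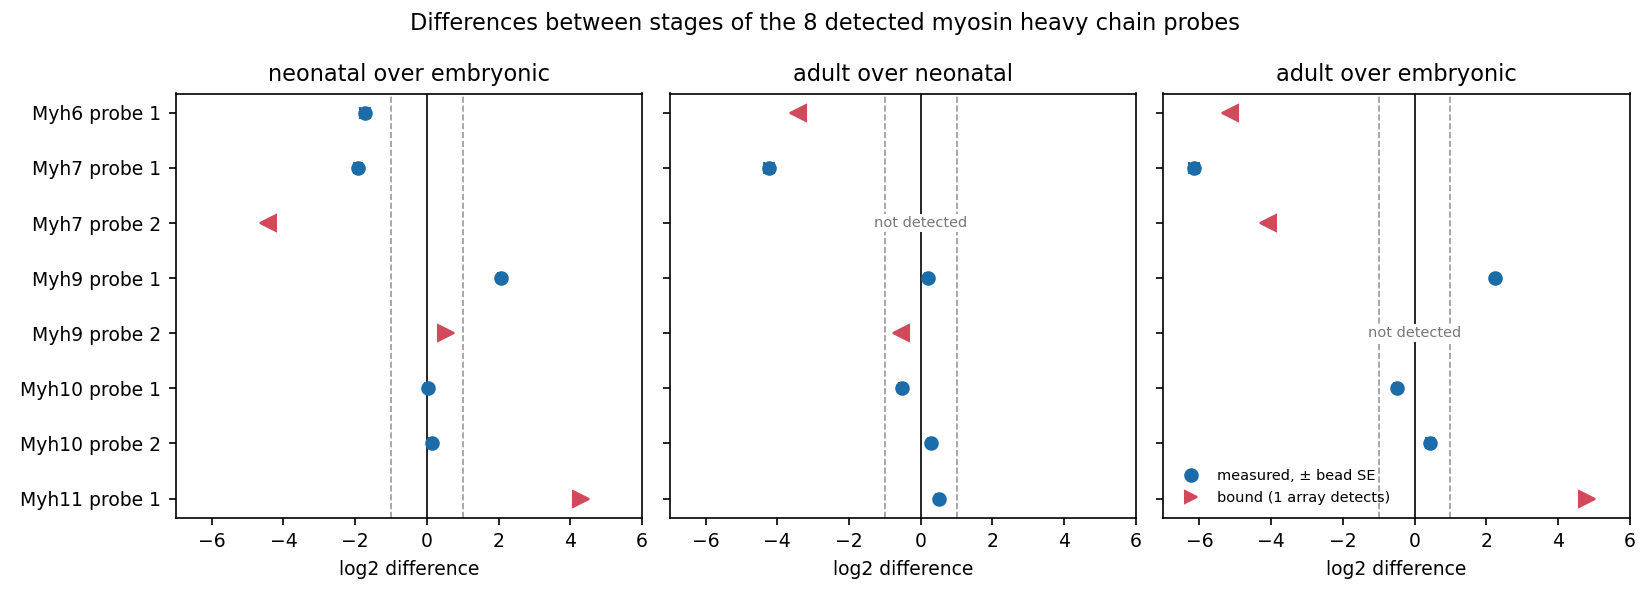
Log2 differences of the 8 detected heavy chain probes for neonatal over embryonic, adult over neonatal and adult over embryonic. Circles are measured differences with bead standard errors, triangles are bounds where 1 array alone detected the probe and point in the direction of the larger difference, and dashed lines mark 2-fold. Myh6 and Myh7 lie left of the lines wherever they were measured, and Myh11 lies right of them against the embryonic array.

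Counted by probe, 2 of 8 measured heavy chain probes were higher and 3 lower in neonatal over embryonic. Over all 16967 probes measured in that pair, 34.9% were called, with 15.9% higher and 19.0% lower. In adult over neonatal 0 of 7 were higher and 2 lower, against 11.9% and 9.83% of all probes and 21.8% either way. In adult over embryonic 2 of 7 were higher and 3 lower, against 19.5% and 22.0% of all probes and 41.5% either way. With counts this small the shares of the members are a description. Centring arrays on their medians in place of quantile normalization moved the median of all measured probes in adult over neonatal to -0.68, against -0.00 with quantile normalization. Higher probes then made up 11.8% of those called in that pair, against 54.8%, and 27.5% against 46.9% in adult over embryonic and 57.2% against 45.6% in neonatal over embryonic. Relative to that median, Myh9 probe 1 was at 0.11, Myh11 probe 1 at 0.29 and Myh10 probe 1 at -0.70 in adult over neonatal.

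In the authors' deposited table, the adult over embryonic ratio was 0.0206 for Myh6 probe 1, 0.00993 for Myh7 probe 1, 5.02 for Myh9 probe 1, 0.693 for Myh10 probe 1 and 50.1 for Myh11 probe 1. The authors' deposited table gave adult over neonatal ratios of 0.067 for Myh6 probe 1, 0.0548 for Myh7 probe 1, 1.14 for Myh9 probe 1 and 1.40 for Myh11 probe 1. The processed values of some dim probes lie below 0, and the Myh6 ratios and the Myh11 adult over embryonic ratio each rest on 1 undetected signal.

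Among skeletal heavy chains other than the members described here, those detected were seen on the neonatal array alone. Of 9 other heavy chain genes, 6 were on the array and 2 were detected there, Myh3 for the embryonic and Myh8 for the perinatal skeletal chain. Myh3 had 60.6 on the embryonic array, 264.9 on the neonatal array and 39.3 on the adult array, and Myh8 had 84.8, 303.0 and 42.4. Both were detected on the neonatal array only, Myh3 at least 2.08-fold and Myh8 at least 2.46-fold above the embryonic array. Myh3 was at least 2.10-fold and Myh8 at least 2.48-fold lower in adult over neonatal. Markers of skeletal muscle summed to 28480.0, 4595.0 and 918.5 on the embryonic, neonatal and adult arrays, with 5, 6 and 4 of 12 detected. Acta1 alone gave 22947.5, 2171.3 and 98.4 of these raw sums. The Myh8 probe carries the same search key in the file as a probe of Myh4, so its gene name is uncertain. Myh1, Myh2 and Myh4, for adult fast chains, and Myh14, for nonmuscle myosin IIC, were detected on no array.

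Light chains are the partners bound at the neck of each heavy chain. The striated light chains were at least 2-fold lower in 1 of 5 measured members in neonatal over embryonic, with a median of -0.43, and in 4 of 5 in adult over neonatal, with a median of -4.06. Over all genes, 17.2% were lower in neonatal over embryonic. In adult over neonatal 10.7% of all genes were lower, 11.1% higher and 21.8% called in all. In adult over embryonic 5 of 5 were lower, against 22.9% of all genes, with 21.4% higher and 44.3% called in all. Myl2, the ventricular regulatory chain, had 35253.8, 28923.8 and 937.8 on the embryonic, neonatal and adult arrays, and Myl7, the atrial one, had 31107.6, 17972.8 and 605.9. Myl2, Myl3, Myl4 and Myl7 lay between -3.95 and -4.15 in adult over neonatal, near the -4.23 of Myh7. These genes are also in the cardiomyocyte marker list, and Mylpf is in the skeletal muscle list. Mylpf, of fast skeletal muscle, was 14.2-fold lower in neonatal over embryonic (-3.83 ± 0.18).

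Of the 4 measured light chains of smooth muscle and nonmuscle myosin, Myl12b was higher and Myl9 lower in neonatal over embryonic. Over all genes 17.6% were higher and 17.2% lower. With the mean over a gene's probes 0 of the list were higher, Myl12b included, and 1 lower. Myl12b had 4192.1 on the embryonic array, 15677.6 on the neonatal array and 6979.4 on the adult array, and was 3.36-fold higher in the neonatal array (1.75 ± 0.11). Its direction at this probe, the one of highest mean signal, was that of Myh9. Myl9, the regulatory chain of smooth muscle, had 17160.6, 7096.1 and 1286.5, and was 2.69-fold lower in the neonatal and 6.42-fold lower in the adult array than in the embryonic. Its direction was opposite to that of Myh11. Myl6, the common essential chain, differed by -0.40 in neonatal over embryonic.

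Kinases and phosphatases that set light chain phosphorylation had 12 measured members in neonatal over embryonic, 2 higher and 1 lower, against 17.6% and 17.2% of all genes. Mylk, the light chain kinase of smooth muscle, had 298.4 on the embryonic array, 5951.5 on the neonatal array and 2053.7 on the adult array, 17.8-fold higher in the neonatal array (4.15 ± 0.09). Mylk is also in the smooth muscle marker list. Ppp1r14a, a smooth muscle inhibitor of the myosin phosphatase, was at least 14.7-fold higher. Ppp1cb, the catalytic subunit of that phosphatase, was 3.48-fold lower (-1.80 ± 0.07). With the mean over a gene's probes 2 of the list were higher and 0 lower in neonatal over embryonic, so Ppp1cb was not called. In adult over neonatal 0 of 12 were higher and 3 lower, among them Cit, for the cytokinesis kinase citron, at least 2.88-fold. Over all genes 11.1% were higher and 10.7% lower in that pair. The list had 6 lower with median centring and 0 with the mean over a gene's probes.

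Genes that fold myosin or hold the thick filament had 2 of 12 measured members higher and 4 lower in neonatal over embryonic, and 0 of 11 higher and 7 lower in adult over neonatal. Over all genes 17.6% were higher and 17.2% lower in the first of these pairs, and 11.1% and 10.7% in the second. The list's medians were -0.48 and -2.54, the second of which was -1.77 over genes detected in both arrays and -1.68 with the mean over a gene's probes. Smyd1, a methyltransferase that acts in myosin assembly, had 21402.1 on the embryonic array, 4500.2 on the neonatal array and 125.1 on the adult array, and was 136-fold lower in adult over embryonic (-7.09 ± 0.13). Mybpc3, for cardiac myosin-binding protein C, was 11.4-fold lower in the neonatal array than in the embryonic, a larger difference than that of either cardiac chain's first probe. Mybpc3 and Ttn of this list are also in the cardiomyocyte marker list. Unc45a, the general myosin chaperone, was 2.56-fold higher in neonatal over embryonic (1.35 ± 0.08). Myom2, for the M-band protein of fast fibres, had 143.8, 993.7 and 93.7, 6.99-fold higher in the neonatal array than in the embryonic and 8.68-fold lower in the adult array than in the neonatal.

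Partners of nonmuscle myosin and cytokinesis genes had 6 of 13 measured members higher and 2 lower in neonatal over embryonic, against 17.6% and 17.2% of all genes. With the mean over a gene's probes 4 were higher and 0 lower. Flna, for the actin crosslinker filamin A, had 573.7 on the embryonic array, 9041.2 on the neonatal array and 3663.4 on the adult array, 13.9-fold higher in the neonatal array (3.80 ± 0.13). Ect2, which starts cleavage furrow assembly, was at least 3.01-fold lower in neonatal over embryonic and Llgl1 differed by 0.01. In adult over neonatal S100a4, whose product binds the IIA tail, was 3.07-fold higher (1.62 ± 0.07), and Sept9, for a septin, 5.17-fold lower (-2.37 ± 0.28). With median centring 0 members of the list were at least 2-fold higher in that pair, S100a4 included. In adult over embryonic Anln, for the contractile ring protein anillin, was 11.5-fold lower.

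Regulators known for the cardiac myosin genes had 1 of 13 measured members higher and 3 lower in neonatal over embryonic, with a median of -0.41, against 17.6% and 17.2% of all genes. Nkx2-5, a cardiac homeobox factor, was 15.4-fold lower (-3.95 ± 0.13), Nfatc4, a calcineurin-responsive factor, 5.78-fold higher (2.53 ± 0.08), and Rxra was at 0.00, as a bound. In adult over neonatal 1 of 13 was higher and 2 lower, with a median of -0.56, against 11.1% and 10.7% of all genes. With median centring 0 were higher, Dio2 included, and 8 lower, with a median of -1.05. Dio2, which activates thyroid hormone, had 144.2 on the embryonic array, 238.8 on the neonatal array and 302.9 on the adult array, 3.07-fold higher in the adult array than in the neonatal (1.62 ± 0.14). Tbx5, a T-box factor, was 3.02-fold lower (-1.60 ± 0.12). In adult over embryonic 3 of 12 were higher and 6 lower, with a median of -1.02, against 21.4% and 22.9% of all genes, and the median was -1.70 with median centring.

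**Figure D4:**
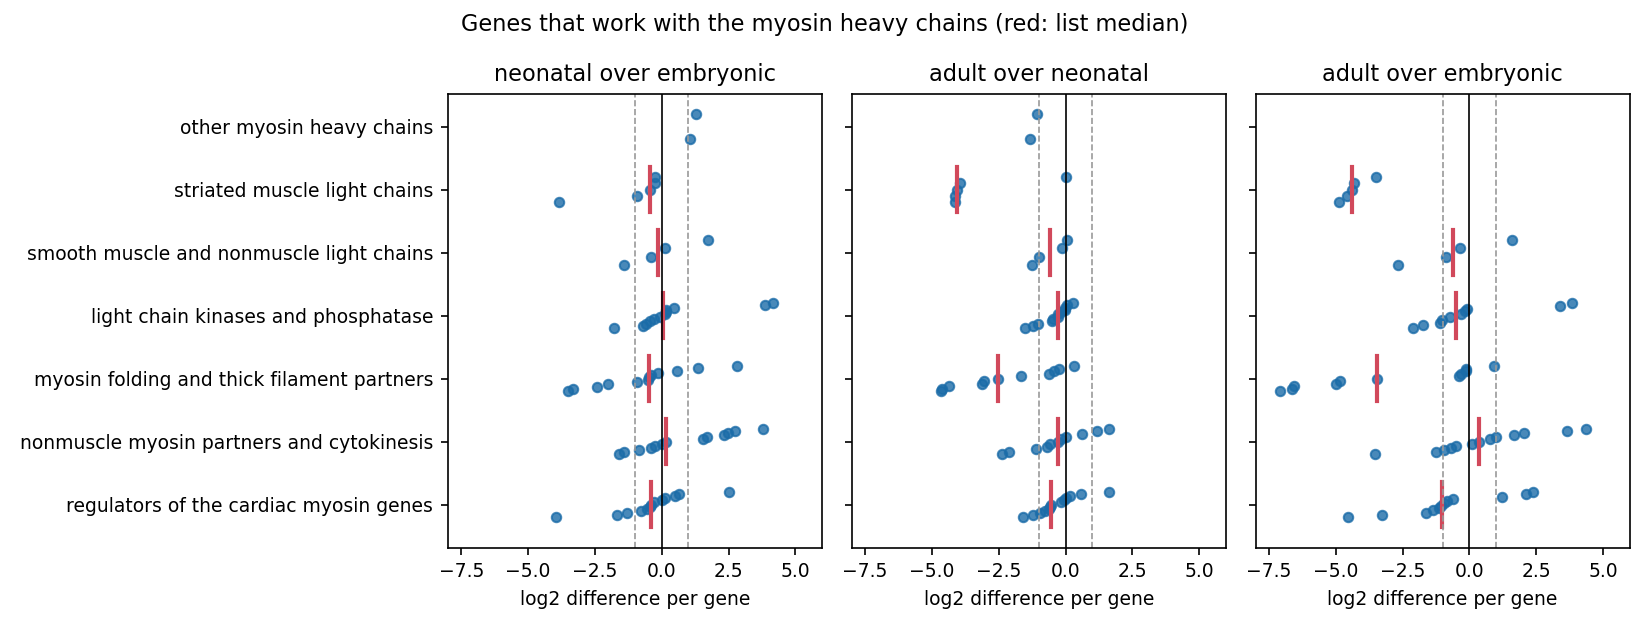
Log2 differences of the measured genes of 7 lists related to the heavy chains, 1 point per gene, for neonatal over embryonic, adult over neonatal and adult over embryonic. Red bars are list medians where at least 3 genes were measured, dashed lines mark 2-fold, and genes detected on 1 array of a pair are drawn at their bound. The median of striated light chains was -4.06 and that of folding and thick filament genes -2.54 in adult over neonatal.

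Profiles most like each heavy chain were found among 10921 genes as the smallest Euclidean distance between the 3 log2 values after subtracting each gene's mean. With 3 arrays, this is a description of shape over 3 points. Nearest to Myh6 were Eno3, for muscle enolase, at a distance of 0.04, and the cell cycle genes Pclaf at 0.06 and Bub1b at 0.12, with C2cd4a at 0.12 and Pif1 at 0.19. Nearest to Myh7 were Cdca5, of sister chromatid cohesion, at 0.11, Klhl41, of sarcomere assembly, at 0.16 and Ryr2, the calcium release channel, at 0.16, with Plk1 at 0.26 and Spc24 at 0.27. Of these neighbours of the cardiac chains, Eno3 and Ryr2 were detected on all 3 arrays and the others on 2. Myh6 itself was undetected on the adult array, so all of its distances include an undetected signal. Those of Myh7 do too, except the distance to Ryr2. Nearest to Myh9 were Cracr2b at 0.02, Cryl1 at 0.04, Rbms3 at 0.05, Ano6 at 0.05 and Dok2 at 0.06. The 5 nearest to Myh10, Sat2, Lca5, Ppm1f, Hpf1 and Scai, lay between 0.0062 and 0.016. Nearest to Myh11 were Tril at 0.04, Mrc2, a collagen receptor, at 0.05, Myof at 0.10, P2ry2 at 0.12 and Nid1 at 0.15. Cracr2b, Dok2, Myof and P2ry2 were detected on 2 arrays. Myh11 itself was undetected on the embryonic array, so all of its distances include an undetected signal.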

How the data were processed

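RNA of mouse cardiomyocyte preparations of 3 ages was read on Illumina bead arrays, 1 array of pooled RNA per age. Biotinylated cRNA was made with an Ambion kit from Trizol extracts after DNase digestion, per the labels. The sources used here give no scanner software or array version. The authors' deposited table of raw intensity holds, per the file headers, each probe's bead spread, its count of beads and its detection score. Per the deposited values the score is a fraction that nears 1 for bright probes, and 1 minus it was used as a detection p. They also deposited processed intensity and a table of adult over embryonic and adult over neonatal as a ratio and its natural log, per the file headers. Each ratio equalled the quotient of the processed values within a relative tolerance of 0.001, and how these were normalized is unknown.

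Raw intensity was background-corrected from the detection p with an offset of 16, quantile normalized and set to log2 by neqc of limma 3.58.1 in R 4.3.3, so a shift common to all probes of a stage cannot be seen. Calls need a difference of 1 on the log2 scale and a detection p under 0.01 on at least 1 array of a pair. For bounds, the dim side was set to its own value or, if greater, to the array's lowest detected value, 6.27 for embryonic, 5.93 for neonatal and 6.26 for adult. The background was estimated at 63.7, 65.0 and 49.8 in that order. Probes were named through RefSeq symbols of GRCm38.p6, with 11877 matched by accession, 22852 by symbol or synonym and 134 left out for conflict, and a listed gene was read by its probe of highest mean. All members' probes were named. Other genes were named from the light chain, kinase, folding and other heavy chain lists, the extreme and the nearest-to-0 member of each other list, and the 5 profiles nearest to each member. Calls on plain differences were tested on simulated data for probes well above background, and the rule for bounds was not part of that test. The members and lists were chosen with earlier results of these data known. The number of arrays limits the precision. Alternatives were normalization, background correction, offset, detection rule, arrays normalized together and the authors' processed values.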

Additional observations from a re-analysis of the deposited data

How the results depend on the processing

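All 12 member differences called on the reported settings kept their sign and stayed past 2-fold under the 5 alternatives of scale, background, offset, pairwise normalization and the authors' processed values. Of the 10 differences under 2-fold, 6 kept their sign and 7 stayed under 2-fold. With median centring, adult over neonatal called 4 member probes (2 as reported) and 6394 probes in all (3572 as reported), and the median member difference in adult over embryonic was -1.27 (-0.50 as reported). With only probes detected in both arrays, called members numbered 3 in neonatal over embryonic, 1 in adult over neonatal and 2 in adult over embryonic, and 4364 probes in all in the last, since fewer probes are then measured. The Myh6 difference minus the Myh7 difference was 0.79 in neonatal over embryonic and 1.53 in adult over embryonic in the authors' processed values, 1.01 in adult over neonatal and 1.34 in adult over embryonic without background correction, and 0.88 and 1.11 with an offset of 50; the cause was not tested. Pericyte medians turned to -0.21 in neonatal over embryonic and -0.24 in adult over embryonic over genes detected in both arrays, which leaves out the genes the embryonic array missed. Calling on measured differences in place of bounds, an alternative chosen after seeing the data, gave 6, 3 and 5 member probes in neonatal over embryonic, adult over neonatal and adult over embryonic, with Myh9 probe 2 added in neonatal over embryonic and in adult over neonatal. No paired analysis was possible because each stage has 1 array.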
